A study of Rattus norvegicus with 6 samples.

Results

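Pbk and 9 further kinase genes of cell division were followed in whole lung of rats given monocrotaline (MCT), a toxin of Crotalaria plants that injures lung vessels and serves as a rat model of pulmonary arterial hypertension. The genes were taken by symbol, and 9 of the 10 named symbols (Pbk, Cdk1, Aurka, Aurkb, Plk1, Bub1, Bub1b, Ttk and Melk) were measured, each on 1 locus, out of 23802 genes in all. No locus carried the exact symbol Nek2, so Nek2 was not analysed here. The MCT group held 3 lung samples taken 4 weeks after 1 dose of 60 mg/kg, and the control group held 3 lung samples from rats given saline. All rats were male, wild-type Sprague-Dawley animals of 200 to 250 g, and polyA RNA of the whole tissue was sequenced. The labels give the MCT injection as intraperitoneal in one place and subcutaneous in another, and the saline as subcutaneous, so the route may have differed between the groups. Whether the samples of a group came from separate animals is not stated, so the p-values reflect sample-to-sample spread that could be partly technical.

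A cell enters mitosis when CDK1, bound to cyclin B, phosphorylates many proteins of the nucleus and cytoskeleton. PLK1 and the Aurora kinases then build the spindle, while BUB1, BUBR1 (the product of Bub1b) and TTK hold the cell at the spindle checkpoint until every chromosome is attached. PBK, the PDZ-binding kinase named in the series title and also called TOPK, is a serine/threonine kinase of the MAP kinase kinase type that is phosphorylated by CDK1 in mitosis. Most of these genes are transcribed late in the cell cycle and kept low in resting cells, with CHR elements and CCAAT boxes near the start of transcription known, mainly from human and mouse cells, to carry that timing.

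Promoters are shown for the 4 of these kinases whose promoters, among those at hand, hold the CHR letters. Each runs from 100 bases (for Cdk1, 140) before the annotated start of transcription to 12 bases after it, in RefSeq's GRCr8 build, which is not the build the reads were aligned to. Capitals mark matches, on either strand, to the CHR letters TTTGAA, to the CCAAT box CCAAT, or to an E2F site (TTTCCCGC, TTTCGCGC, TTTGGCGC or TTTGCCGC). No printed match overlaps another.
Cdk1, chr20:19265153-19265304, plus strand: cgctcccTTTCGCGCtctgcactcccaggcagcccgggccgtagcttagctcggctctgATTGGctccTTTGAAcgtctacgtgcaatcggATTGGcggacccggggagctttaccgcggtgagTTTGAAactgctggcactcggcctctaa
Plk1, chr1:186147558-186147669, plus strand: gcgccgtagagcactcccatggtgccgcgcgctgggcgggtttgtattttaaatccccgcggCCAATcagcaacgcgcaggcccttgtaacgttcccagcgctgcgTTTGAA
Ttk, chr8:93634539-93634650, plus strand: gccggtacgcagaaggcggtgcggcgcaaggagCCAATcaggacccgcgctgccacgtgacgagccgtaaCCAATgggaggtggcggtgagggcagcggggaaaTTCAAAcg
Bub1b, chr3:126016967-126017078, plus strand: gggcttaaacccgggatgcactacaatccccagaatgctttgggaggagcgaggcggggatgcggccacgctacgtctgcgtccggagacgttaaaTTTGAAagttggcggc

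In the Cdk1 promoter 1 CHR match begins 16 bases before the start and another 72 bases before it. CCAAT boxes on the minus strand begin 49 and 81 bases before the start, and another, outside the printed stretch, 210 bases before it. Counting the start as base 1, the CHR letters begin at base 7 in Plk1 and 4 bases before the start in Bub1b. In Ttk they lie on the minus strand, with the match beginning at base 5. Over the full window of 250 bases before to 50 bases after the start, 7 of the 9 kinase genes had an entry (Pbk and Aurkb had none). The CHR letters were found in 4 of those 7 promoters and not in those of Aurka, Bub1 and Melk, against 18.1% of the 27457 promoters of this length. A CCAAT box was found in 3 of 7, against 37.7% of all promoters, and an E2F site in 1 of 7, against 2.25%. These shares describe letters in a window, with no test.

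All 9 measured kinase genes rose in MCT lungs (adjusted p under 0.05 by edgeR's quasi-likelihood test, with Benjamini-Hochberg adjustment over 15250 genes), against 8.01% of all tested genes. In all 9 the lowest MCT sample lay above the highest control, which held for 18.4% of tested genes. Their median log2 fold change was 1.90, against -0.01 over all tested genes. The rises ran from 1.72-fold for Aurka to 6.99-fold for Pbk, and 8 of the 9 were at least 2-fold. In whole tissue, more dividing cells and more of these transcripts per cell cannot be told apart. The values rest on 115 to 962 counts per gene in MCT samples and 14 to 341 in controls, from 14332930 to 17096157 counts per MCT library and 13525912 to 17916134 per control library.

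**Figure D1:**
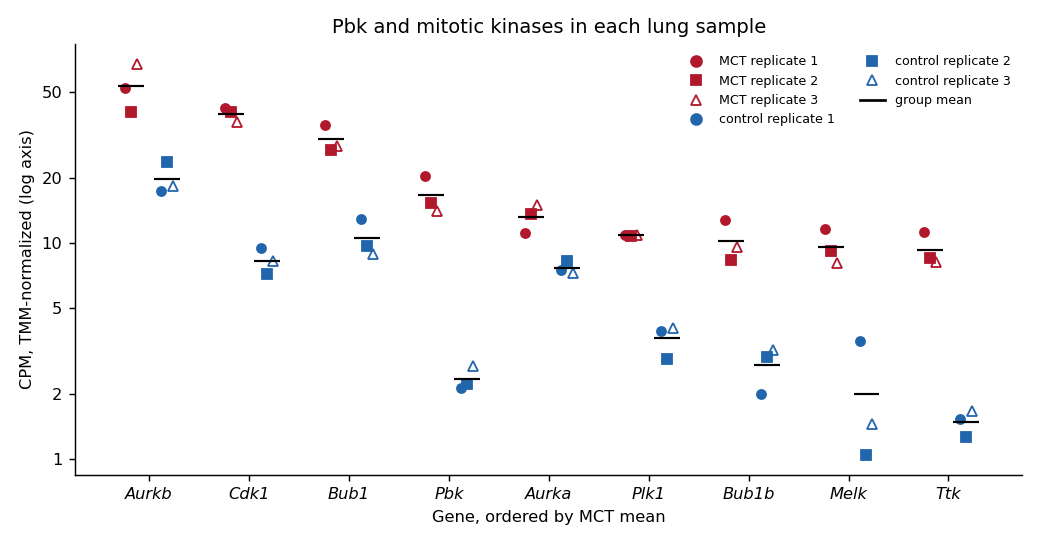
CPM (TMM-normalized, log axis) of each kinase gene in each of the 3 MCT samples (red) and 3 control samples (blue), with black lines at the group means. For every gene the red points lie above the blue ones, with the widest gap in Pbk and the narrowest in Aurka.

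Pbk (ENSRNOG00000015308) stood at 20.4, 15.2 and 14.01 CPM, counts scaled to library size by TMM, in MCT replicates 1 to 3, against 2.13, 2.23 and 2.70 CPM in control replicates 1 to 3. The lowest MCT sample was 5.20 times the highest control. It rose by 2.80 (log2, SE 0.23, edgeR adjusted p = 0.000682), and 0.682% of tested genes had a larger fitted rise. Pbk was the gene with the largest fitted rise among these kinases, followed by Ttk.

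Cdk1 (ENSRNOG00000000632), the kinase whose activity starts mitosis, stood at 42.1, 40.1 and 36.1 CPM in MCT samples, against 9.45, 7.15 and 8.25 CPM in controls. The MCT samples lay close together, and the lowest was 3.82 times the highest control. Cdk1 rose by 2.25 (log2, SE 0.16, edgeR adjusted p = 0.000593).

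The Aurora genes rose by different amounts. Aurkb (ENSRNOG00000005659), the catalytic subunit of the chromosomal passenger complex that corrects faulty attachments, stood at 52.2, 40.4 and 67.4 CPM in MCT samples, against 17.3, 23.8 and 18.4 CPM in controls. It varied most of these kinases between MCT samples (SD 25.4% of the mean) and rose by 1.43 (log2, SE 0.21, adjusted p = 0.00509, edgeR). Aurka (ENSRNOG00000004479), which acts at centrosomes and spindle poles, stood at 11.1, 13.6 and 14.9 CPM in MCT samples, against 7.52, 8.27 and 7.23 CPM in controls. Its rise of 0.78 (log2, SE 0.19, adjusted p = 0.0286, edgeR) was the smallest of the set, and the lowest MCT sample was 1.34 times the highest control. Aurka held its call when MCT replicate 1 was left out and lost it in each of the other 5 leave-one-out fits, with adjusted p of 0.0524 and 0.0939 for MCT replicates 2 and 3, and of 0.0642, 0.0707 and 0.106 for control replicates 1, 2 and 3.

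Plk1 (ENSRNOG00000018815), the Polo-like kinase of spindle assembly and chromosome separation, stood at 10.9, 10.8 and 10.9 CPM in MCT samples, against 3.93, 2.90 and 4.04 CPM in controls. The MCT samples nearly coincided (SD 0.352% of the mean), while controls varied by 17.3% of their mean. Plk1 rose by 1.57 (log2, SE 0.21, edgeR adjusted p = 0.00378).

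The spindle checkpoint kinases rose as well, Ttk the most. Ttk (ENSRNOG00000029055), also called MPS1, which recruits the other checkpoint proteins to unattached kinetochores, stood at 11.3, 8.54 and 8.13 CPM in MCT samples, against 1.53, 1.27 and 1.67 CPM in controls. Ttk rose by 2.63 (log2, SE 0.26, edgeR adjusted p = 0.00113), close to that of Pbk. Bub1b (ENSRNOG00000007906), whose product binds and holds back CDC20, stood at 12.7, 8.30 and 9.53 CPM in MCT samples, against 1.996, 2.98 and 3.18 CPM in controls. It rose by 1.90 (log2, SE 0.28, adjusted p = 0.00487, edgeR). Bub1 (ENSRNOG00000032778), which marks centromeric histone H2A for shugoshin binding, stood at 35.2, 26.9 and 28.0 CPM in MCT samples, against 12.8, 9.68 and 8.90 CPM in controls. It rose by 1.52 (log2, SE 0.19, adjusted p = 0.00272, edgeR). In all 3 checkpoint genes MCT replicate 1 was the highest sample.

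Melk (ENSRNOG00000013598), a kinase of dividing and progenitor cells, stood at 11.5, 9.19 and 8.06 CPM in MCT samples, against 3.53, 1.04 and 1.46 CPM in controls. Control replicate 1 stood well above the other 2 controls in Melk, and the control SD was 66.3% of the mean. Melk rose by 2.25 (log2, SE 0.42, edgeR adjusted p = 0.0125), a value that became 2.92 without control replicate 1. Leaving out control replicate 3 ended the call (adjusted p = 0.0577). A locus carrying the name Nek2l1, listed by RefSeq as a pseudogene with a name that marks it as Nek2-like, was looked at after the values were seen and is not counted here. It stood at 5.02, 3.14 and 5.88 CPM in MCT samples, against 0.93, 1.04 and 1.51 CPM in controls (log2 fold change 1.99, SE 0.36, adjusted p = 0.0111, edgeR), and lost its call when control replicate 2 was left out (adjusted p = 0.053). How the counting treated reads shared with near-identical loci is not stated.

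The samples did not keep one order across the kinases. MCT replicate 1 was the highest MCT sample for 6 of the 9 genes and replicate 3 for the other 3, Aurka, Aurkb and Plk1. In Aurka, MCT replicate 1 was the lowest MCT sample. Among controls, replicate 3 was highest for 4 genes, replicate 1 for 3 and replicate 2 for 2.

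Levels were compared between genes per length, on the FPKM values deposited by the authors. In MCT lungs Cdk1 led with 32.9 ± 2.72 FPKM, followed by Aurkb with 22.2 ± 5.64 and Pbk with 9.02 ± 1.92 FPKM (SD, n = 3 each). Below them came Bub1 with 6.66 ± 1.06, Aurka with 5.56 ± 0.801 and Plk1 with 4.82 ± 0.0603 FPKM (SD, n = 3). Melk, Ttk and Bub1b were lowest with 3.36 ± 0.648, 2.89 ± 0.442 and 2.49 ± 0.582 FPKM (SD, n = 3). Sample values of neighbours did not overlap between Cdk1 and Aurkb, Aurkb and Pbk, or Plk1 and Melk, and overlapped between each other pair of neighbours in that order.

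In control lungs the order differed. Aurkb and Cdk1 led with 8.22 ± 1.84 and 6.97 ± 0.932 FPKM (SD, n = 3), and their samples overlapped. Aurka followed with 3.26 ± 0.195 FPKM, Bub1 with 2.33 ± 0.41 and Plk1 with 1.63 ± 0.301, and Pbk came after these 5 with 1.29 ± 0.208 FPKM (SD, n = 3). Melk had 0.703 ± 0.455, Bub1b 0.67 ± 0.171 and Ttk 0.497 ± 0.065 FPKM (SD, n = 3). From Plk1 down to Ttk, each gene overlapped its neighbour.

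Summed over the 9 genes, the level was 97.6, 81.9 and 90.2 FPKM in MCT samples, against 25.4, 25.8 and 25.4 FPKM in controls. Cdk1 made up 33.4% to 40.6% of that sum in MCT samples, against 23.0% to 30.6% in controls. Pbk made up 8.46% to 11.5% in MCT samples, against 4.48% to 6.02% in controls, while the share of Aurkb overlapped, at 19.8% to 30.4% in MCT samples and 26.3% to 39.7% in controls.

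**Figure D2:**
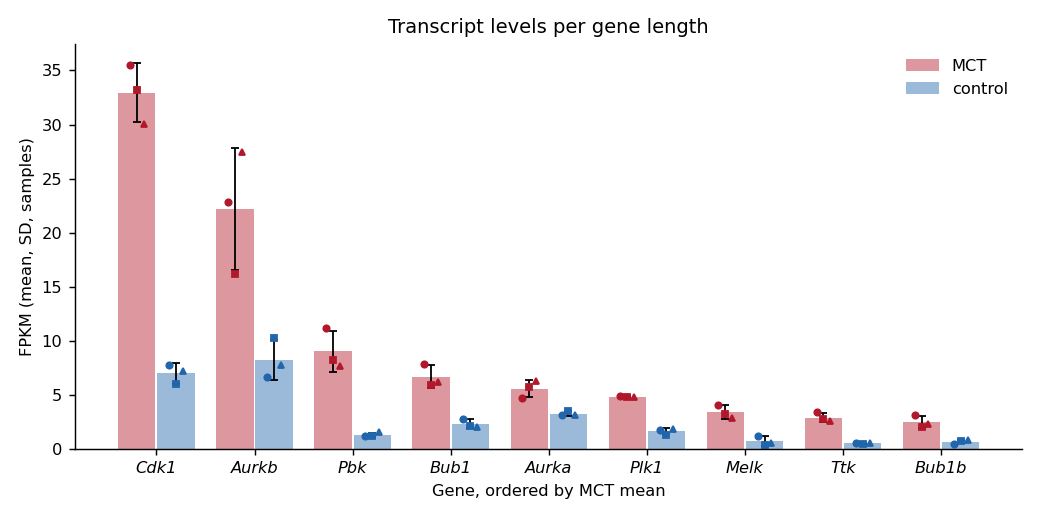
FPKM of each kinase gene on a linear axis, with bars at the mean of 3 MCT samples (red, left) or 3 control samples (blue, right), error bars of 1 SD and points for the samples. Cdk1 is highest in MCT lungs at 32.9 FPKM, where Pbk comes after Cdk1 and Aurkb, while in controls 5 of these genes stand above it.

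Pbk was next set against each other kinase within each sample, as the log2 CPM of Pbk minus that of the other gene. The difference to Aurka was 0.88, 0.16 and -0.09 in MCT replicates 1 to 3, against -1.76, -1.83 and -1.38 in control replicates 1 to 3. CPM is not per length, so the size of such a difference also holds the lengths of both genes, and only its shift between the groups is compared. For Aurka the shift was 1.97 (log2). The shift was 1.33 against Aurkb, 1.22 against Bub1, 1.18 against Plk1 and 0.88 against Bub1b, and 0.50 against Cdk1. For these 6 genes and Ttk every MCT sample lay above every control. The exact two-sided permutation test gave p = 0.1 each, the smallest p that 3 against 3 samples allow. With the exact permutation test adjusted over 8 pairs this became p = 0.114, so none could pass the threshold. Pbk by itself was separated too, its lowest MCT sample being 5.20 times its highest control. How many of all tested genes would be separated in the same way against Pbk was not computed. The separation is therefore not shown to be particular to these kinases.

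On the log2 CPM scale the shift was smallest against Ttk. The difference was 0.85, 0.83 and 0.78 (log2 CPM) in MCT samples, against 0.44, 0.76 and 0.65 in controls, a shift of 0.20. Against Melk the shift was 0.39, the groups overlapped (exact permutation p = 1), and the sign turned to -0.15 without control replicate 1. The order of the smallest shifts depended on the scale: on log2(FPKM + 1) it was 0.02 against Cdk1 (adjusted exact permutation p = 1), 0.73 against Melk and 0.74 against Ttk, and on log2(FPKM + 0.1) it was 0.38 against Ttk, 0.46 against Melk and 0.47 against Cdk1.

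**Figure D3:**
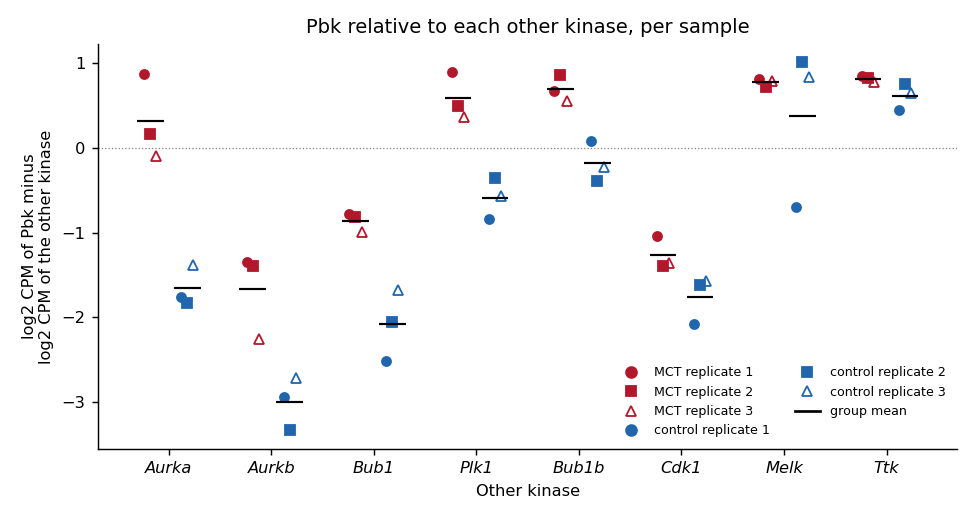
The log2 CPM of Pbk minus that of each other kinase in the 3 MCT samples (red) and 3 control samples (blue), with black lines at the group means and kinases ordered by the shift between the means. The shift is largest against Aurka, at 1.97, and red and blue points overlap for Melk.

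Among 13221 named genes with a mean of at least 1 CPM, the profile over the 6 samples most like that of Pbk was that of Ttk, with a root mean square difference of 0.14 (log2 CPM, each gene centred on its own mean). It was followed by Cdca3, Rrm2, Birc5, Ube2c, Ackr2, Kif22, Sgo1, Ccnb1 and Nuf2, with differences of 0.18 to 0.22. All 10 rose, by 2.36 to 3.07 (log2). The measure holds the difference between the groups as well as the spread within them, and the points share their libraries, so it is a description with no test. Of the other kinases, Cdk1 ranked 30 in likeness to Pbk and Bub1b 98, while Aurka ranked 1049.

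Partners of these kinases were counted over whole lists. Of 28 tested activators and partners 17 rose, against 8.01% of all tested genes, and the remaining 11 did not pass. The list's median log2 fold change was 1.24. By the naming rule, Ccnb1, a mitotic cyclin of CDK1, rose by 2.36 (log2, SE 0.24, edgeR adjusted p = 0.00124). Ccna2, cyclin A, rose by 2.02 (SE 0.18, adjusted p = 0.00078). Sgo2, a shugoshin that protects centromeric cohesion, rose by 2.06 (SE 0.18, adjusted p = 0.00078). Bub3, the most abundant, which carries BUB1 and BUBR1 to kinetochores, had 0.31 (adjusted p = 0.0913). Ccnb2, another mitotic cyclin of CDK1, named after its value was seen, had 0.20 (SE 0.46, edgeR adjusted p = 0.811). Its locus had only 12 to 31 counts in MCT samples and 9 to 24 in controls. The locus carries an id beginning with XLOC, not an Ensembl id as Ccnb1 and Ccna2 do. Whether it holds the whole Ccnb2 gene was not checked, so the value may not stand for that gene. The sign of the Ccnb2 value turned without MCT replicate 2 or control replicate 2.

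Further partners were named by role after their values were seen. Tpx2, the spindle activator of AURKA, rose by 2.74 (log2, SE 0.36, adjusted p = 0.0034), against 0.78 for Aurka itself, while Bora, through which AURKA activates PLK1, had 0.63 (adjusted p = 0.172). Ajuba and Cep192, further partners of AURKA, had -0.11 (adjusted p = 0.712) and 0.11 (adjusted p = 0.676), the first with a turned sign without MCT replicate 1. The passenger complex subunits rose with Aurkb, Birc5 (survivin) by 2.43, Cdca8 (borealin) by 1.64 and the scaffold Incenp by 1.07. The differences between a kinase and its partners were not tested. At the checkpoint, Cdc20, the target that the checkpoint holds back, rose by 1.66, Knl1, the kinetochore scaffold of BUB1, by 1.58 and Cenpe, a kinesin that binds BUBR1, by 2.32. Mad2l1, the other CDC20 inhibitor, rose by 0.87 (adjusted p = 0.0471), a call that ended without any 1 sample except MCT replicate 2 (adjusted p = 0.0925 to 0.149). With all samples kept, the Mad2l1 call also ended by limma-voom (adjusted p = 0.0557) and by edgeR with the replicate block (adjusted p = 0.108). Mad1l1, the partner of MAD2, had -0.04 (adjusted p = 0.92), with a turned sign without MCT replicate 1 or 3 or control replicate 3, and Spdl1, a kinetochore adaptor of dynein, had 0.40 (adjusted p = 0.323).

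**Figure D4:**
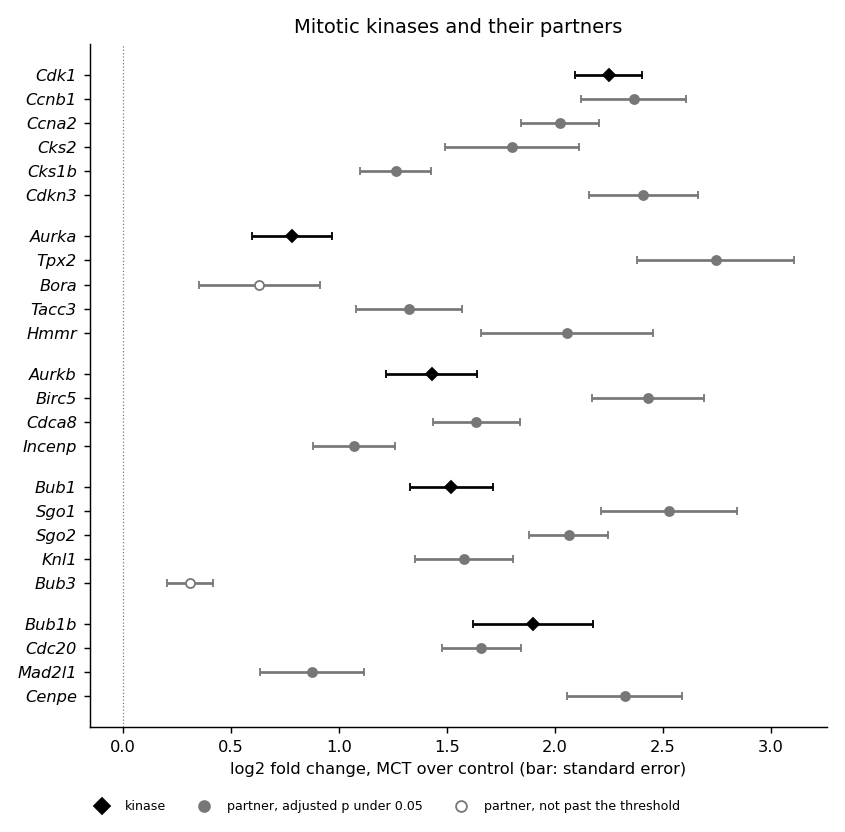
Log2 fold change of MCT over control (edgeR, bars of 1 standard error) for 5 kinases (black diamonds) and partner genes grouped under each (grey circles, open where the adjusted p was 0.05 or more). Tpx2 lies at 2.74 against 0.78 for Aurka, and of the partners drawn Bora and Bub3 did not pass. Hmmr lost its call without control replicate 3 (edgeR adjusted p = 0.0588) and Tacc3 without control replicate 2 (edgeR adjusted p = 0.0502). Mad2l1 lost its call in most leave-one-out fits. The partners drawn are a selection, and 11 of the 28 tested activators and partners did not pass. Ccnb2, Ajuba, Cep192, Mad1l1 and Spdl1 are not drawn.

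Most inhibitors did not pass. Of 19 inhibitors and opposing phosphatases 3 rose, 1 fell and 15 did not pass, with a median of 0.05 (log2), where 8.01% of all tested genes rose and 5.11% fell. Cdkn3, a phosphatase that removes the activating phosphate of cyclin-dependent kinases, rose by 2.41 (SE 0.25, adjusted p = 0.00141) and Cdca2, which brings phosphatase 1 to anaphase chromatin, by 2.06 (SE 0.29, adjusted p = 0.0041). The third that rose, named after its value was seen, was Cdkn1a, the CDK inhibitor p21, by 1.76 (SE 0.36, adjusted p = 0.0167), a call lost without control replicate 2 (adjusted p = 0.073). The gene that fell was Cdkn1b, the CDK inhibitor p27 of resting cells, by 0.89 (log2, SE 0.17, adjusted p = 0.0133). Cdkn1b lost this call when control replicate 2 or 3 was left out, with adjusted p of 0.0561 and 0.0577. Ppp1cb, a catalytic subunit of phosphatase 1, had -0.32 (adjusted p = 0.118) and was called lower by DESeq2 (adjusted p = 0.0268).

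Of 20 other kinases of cell division 6 rose, against 8.01% of all tested genes, and 14 did not pass. The list's median was 0.31 (log2). Mastl, which blocks the phosphatase that opposes CDK1, rose by 2.12 (SE 0.27, adjusted p = 0.00284), Plk4, the kinase of centriole duplication, by 1.35 (SE 0.21, adjusted p = 0.0061) and Nek6, a spindle kinase, by 1.26 (SE 0.20, adjusted p = 0.00688). Cdk4, the most abundant, a kinase of G1, had 0.26 (adjusted p = 0.125). Wee1, which inhibits CDK1 and was named after its value was seen, had 0.43 (adjusted p = 0.242), or 0.76 and a call (adjusted p = 0.0283) when control replicate 1 was left out. Pkmyt1, the other kinase that inhibits CDK1, also named after its value was seen, rose by 0.79 (SE 0.19, adjusted p = 0.0311). It lost its call in 4 of the 6 leave-one-out fits, with adjusted p of 0.0843 and 0.063 for MCT replicates 1 and 2, and of 0.074 and 0.108 for control replicates 2 and 3.

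Of 25 spindle and chromosome substrates 21 rose, against 8.01% of all tested genes, and 4 did not pass. The list's median was 1.65 (log2). Nusap1, a microtubule binder, rose by 2.38 (SE 0.20, adjusted p = 0.000743), the condensin gene Ncaph by 2.01 (SE 0.19, adjusted p = 0.000992) and Prc1, which bundles the central spindle, by 1.53 (SE 0.16, adjusted p = 0.00123). Stmn1, the most abundant, a tubulin-binding protein also made in resting cells, had 0.02 (adjusted p = 0.94), and its sign turned without MCT replicate 2 or control replicate 3 and on both FPKM scales.

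Of 18 transcription factors and cofactors of late cell cycle genes 4 were called higher, 1 was called lower and 13 neither. Of all tested genes 8.01% were called higher and 5.11% lower. The list's median was 0.09 (log2). Foxm1, an activator of mitotic genes, rose by 1.13 (SE 0.18, adjusted p = 0.00753), Mybl2, B-Myb, which acts with it late in the cell cycle, by 1.85 (SE 0.30, adjusted p = 0.00768) and the repressor E2f7 by 2.58 (SE 0.41, adjusted p = 0.00697). Rbbp4, the most abundant, a histone-binding protein, had 0.08 (adjusted p = 0.651). The gene that fell, named after its value was seen, was Rbl2, a pocket protein of resting cells, by 0.55 (log2, adjusted p = 0.0199). Rbl2 lost its call in 4 of the 6 leave-one-out fits, with adjusted p of 0.0632 and 0.0838 for MCT replicates 1 and 3, and of 0.0727 and 0.0871 for control replicates 2 and 3.

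The MAP kinases and other partners linked to Pbk were not called by edgeR. Of 16 tested, 0 passed, while 2 were higher and 3 lower at an unadjusted p under 0.05, and DESeq2 called 1 higher and 1 lower and limma-voom 1 lower. Over all tested genes edgeR called 8.01% higher and 5.11% lower. Map2k6, a p38 MAP kinase kinase, had -0.87 (log2, SE 0.25, adjusted p = 0.0512) and was called lower in 5 alternatives: DESeq2 (adjusted p = 0.0205), limma-voom (0.0493), limma on both FPKM scales (0.0393 and 0.0457) and the fit leaving out MCT replicate 2 (0.0434). Dlg1, a scaffold whose PDZ domains bind PBK, had -0.43 (adjusted p = 0.107), and reached a call when control replicate 2 was left out (adjusted p = 0.0414). Map2k7, a kinase of the JNK cascade named after its value was seen, had -0.53 (adjusted p = 0.143), and -0.73 with a call (adjusted p = 0.0349) when control replicate 1 was left out. The peroxidase gene Prdx1, the most abundant, had 0.55 (adjusted p = 0.0921), with a call by DESeq2 at 0.0337 and, leaving out MCT replicate 2, at 0.0413.

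Of 8 proliferation markers 7 rose, against 8.01% of all tested genes. Top2a rose by 2.21, Tk1 by 1.91 and Mki67 by 1.94 (log2, edgeR adjusted p = 0.000301, 0.000593 and 0.00141). The number called higher was 5 without MCT replicate 1 or any 1 control, and 6 without MCT replicate 3. Pcna, the most abundant, had 0.45 (adjusted p = 0.06), with a call by DESeq2 at 0.0308 and, leaving out MCT replicate 2, at 0.0402.

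**Figure D5:**
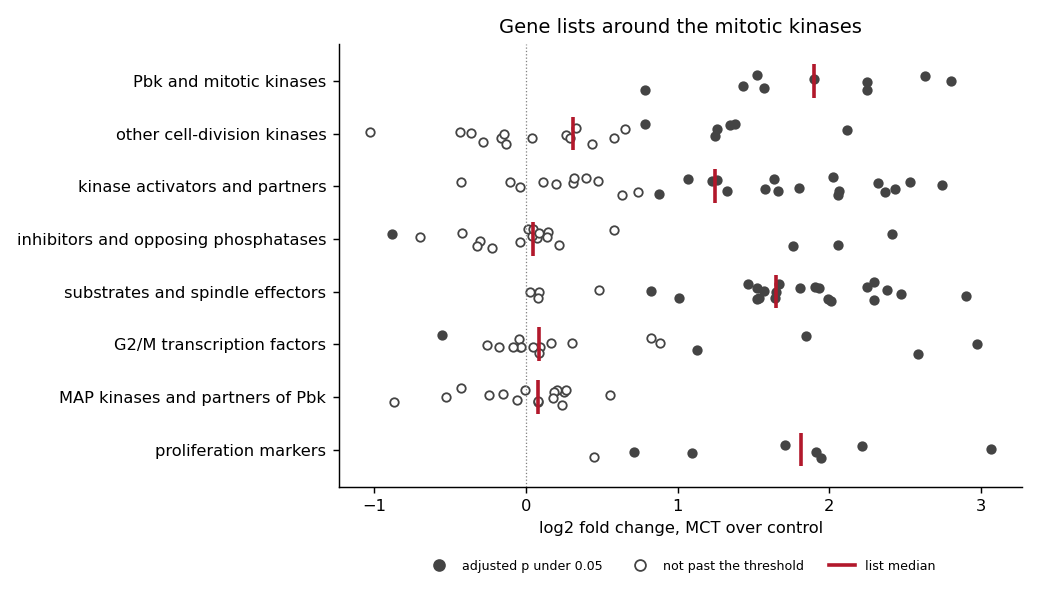
Log2 fold change of MCT over control for every tested gene of the kinase set and of 7 lists around it, 1 point a gene, filled where the adjusted p was under 0.05, with red lines at the medians. All 9 kinase points lie right of 0, while MAP kinases and partners of Pbk lie on both sides of 0 with a median of 0.08.

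Lung tissue was checked by its markers, and transcripts of other cell types moved beside the kinases. Over all tested genes 8.01% rose and 5.11% fell, shares to set beside the marker counts that follow. Of 10 epithelial markers 1 fell. Scgb1a1, of club cells, was the most abundant, and the list's summed level was 23175 to 40846 FPKM in MCT samples, against 38026 to 45914 FPKM in controls. Macrophage markers rose in 6 of 7 tested, with sums of 467 to 773 FPKM in MCT samples, against 174 to 201 FPKM in controls. The receptor gene Marco averaged 0.0933 FPKM in MCT lungs and was listed at 0 in all controls. Mast cell markers rose in 8 of 8, with sums of 434 to 1480 FPKM in MCT samples, against 23.9 to 33.8 FPKM in controls.

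Fibroblast markers rose in 2 of 8, with sums of 943 to 1074 FPKM in MCT samples, against 644 to 650.45 FPKM in controls. Smooth muscle markers rose in 5 of 8, with sums of 744 to 1130 FPKM in MCT samples, against 563 to 638 FPKM in controls. Endothelial markers fell in 3 of 10, with sums of 971 to 1546 FPKM in MCT samples, against 1413 to 1651 FPKM in controls. T and NK cell markers fell in 3 of 8, with sums of 57.2 to 88.2 FPKM in MCT samples, against 87.9 to 135 FPKM in controls. Of 7 B and plasma cell markers 4 fell and 2 rose, with sums of 149 to 221 FPKM in MCT samples, against 75.0 to 140.3 FPKM in controls. Of 5 tested erythroid markers 1 rose, with sums of 19.0 to 29.5 FPKM in MCT samples, against 15.3 to 19.1 FPKM in controls. Thymocyte markers summed to 11.4 to 12.6 FPKM in MCT samples, against 12.5 to 15.7 FPKM in controls, and the defining genes Rag1, Rag2, Dntt and Ptcra were too low to test, with group means of at most 0.183 FPKM. Several of these counts changed with 1 sample left out, most of them with more than 1 choice of sample. The numbers over all genes changed as well, to 481 to 1394 called higher and 212 to 978 called lower. With 1 sample left out in turn, endothelial markers called lower numbered 5 without MCT replicate 2 and 1 in each other fit, with Cdh5 and Erg losing their calls in those 5 fits. T and NK cell markers called lower numbered 5 without MCT replicate 2, 2 without MCT replicate 1, 1 without MCT replicate 3 or control replicate 3, and 0 without control replicate 2. B and plasma cell markers called lower numbered 5 without control replicate 1 and 2 without MCT replicate 1. They numbered 1 without MCT replicate 2 or 3 or control replicate 2 or 3. Smooth muscle markers called higher numbered 6 without MCT replicate 2, 4 without control replicate 1 and 3 without MCT replicate 1. They numbered 2 without MCT replicate 3 or control replicate 2 or 3. Fibroblast markers called higher numbered 4 without MCT replicate 2. The epithelial call ended without control replicate 2 or 3, and the erythroid call without MCT replicate 1 or any 1 control. Mast cell markers stayed at 8 in all 6 fits and macrophage markers at 5 or 6. The part of these cell types in the rise of the kinases was not tested.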

How the data were processed

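PolyA RNA of 3 MCT and 3 control lung samples was sequenced. The deposited table holds, per the file headers, an estimated count and an FPKM value made by the authors for each gene and sample. Bowtie2, TopHat2 2.0.3.12 and the build Rnor_6.0 are named in the submitters' processing notes. For the read counter, annotation release and strand setting, nothing is given in the sources used here. Between 90.9% and 91.7% of the deposited estimated counts above 0 were whole numbers, and all were rounded. Groups came from sample titles.

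All 6 samples entered 1 quasi-likelihood fit in edgeR 4.0.16 under R 4.3.3, with TMM and filterByExpr (minimum count 10, minimum total 15), which left 15250 genes, with Benjamini-Hochberg adjustment and a call at an adjusted p under 0.05. It was also run on counts simulated from the same model, with dispersions taken from these samples and changes planted only in genes with higher counts. Such a run cannot show how well the model holds for these samples or for genes with low counts. Levels are CPM with the SD over 3 samples, and a positive log2 fold change means higher in MCT. Within groups, replicates differed beyond sampling noise (chi-square per degree of freedom 23.2 to 52.6). Counting carries no molecular identifiers.

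Alternatives were DESeq2 1.42.0, limma-voom (limma 3.58.1), median-of-ratios factors, other filters, limma on log2(FPKM + 1) and log2(FPKM + 0.1), each sample left out and a replicate block. Pbk was compared with each other kinase by exact permutation (scipy 1.17.1).

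The kinases and lists were chosen with earlier results of these data known. Genes named are the kinases, 3 genes of each list by smallest p plus its most abundant tested gene by FPKM, and the 10 genes most like Pbk. Cell type lists are given by counts and sums. Other genes are said to be named after their values were seen.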

Additional observations from a re-analysis of the deposited data

How the results depend on the processing

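All 9 kinase genes kept their direction in all 126 re-computed values, and the call held in 119. With each sample left out in turn, 7 to 9 of the 9 stayed called. In the same fits 14 to 17 activators and partners and 17 to 22 substrates were called higher. So were 4 to 7 other kinases of cell division and 5 to 7 proliferation markers. Aurka ranged from 0.69 to 0.90 (log2) with a sample left out and was not called with the replicate block (0.77). Melk ranged from 1.96 to 2.92 and Pbk from 2.63 to 2.92 with a sample left out. On the log2(FPKM + 1) scale, which shrinks low genes by construction, Pbk stood at 2.11, Ttk at 1.37, Bub1b at 1.06 and Melk at 1.38. The differences between Pbk and the other kinases were re-computed with alternatives chosen after seeing the data, and 63 of 64 kept their sign. Against Melk the value ranged from -0.15 to 0.71 with a sample left out, and was -0.15 without control replicate 1. Over all genes, 481 to 1394 were called higher and 212 to 978 lower with a sample left out, and DESeq2 called 1182 lower. The cause was not tested.

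The labels number the replicates alike in both groups. Deviations from the group means correlated at -0.06, -0.07 and 0.00 between samples of the same number over 15250 genes, so the numbers were not taken to pair samples. With the replicate block, 917 genes were called higher and 546 lower, and 8 of the 9 kinases. No kinase changed call with DESeq2, limma-voom, median-of-ratios factors, either filter or either FPKM scale. Low control counts, down to 14 for Melk, limit the precision of the folds.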
